A study of Drosophila melanogaster with 2 samples.

Results

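The genes described here encode the Beat, Side, Dpr and DIP proteins of Drosophila melanogaster, cell surface and secreted proteins of the immunoglobulin superfamily through which neurons recognise their partners. They were taken by symbol from the protein-coding genes of the Ensembl annotation: 14 Beat genes, 8 Side genes, 21 Dpr genes and 11 DIP genes, 54 of the 13968 protein-coding genes on the 7 chromosome arms. The series recorded where Lim3, a LIM-homeodomain transcription factor, lay on chromatin of whole embryos aged 8 to 24 h. The flies, of a strain named Lim3-GFP, carried an inserted Lim3 fusion to eGFP, whose promoter the labels do not give, and an anti-GFP antibody pulled down the sonicated chromatin. The labels give 1 group of 2 biological replicates, 1 library each, and no untreated or control library was analysed here.

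Beat proteins are recognised by Side proteins. In the founding pair, Side on muscles and other substrates is sensed by Beat-Ia on motor axons, which steers those axons to their targets. Dpr and DIP proteins form a second network of receptor pairs, in which most DIPs bind several Dprs across the synaptic cleft or between neighbouring axons, and single neurons carry particular combinations. Lim3 itself acts in subsets of embryonic motor neurons and interneurons. In chromatin of whole embryos, a site used in few cells and a site weakly used in many cells cannot be told apart.

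A peak was counted at a gene when its summit lay in the gene's span extended by 2 kb on each side. The larger thresholded list from both libraries, in which every peak had an irreproducible discovery rate (IDR) of 0.01 or less, held 1500 peaks. The conservative list held 966, and the lists of replicates 1 and 2 held 881 and 927. The ranked list of both libraries held 142438 peaks, of which 124 within the IDR limit, none of them at the genes described here, were missing from the larger list, and the ranked lists of replicates 1 and 2 held 104680 and 113860. A rank below is the place of a peak by signal in its own list, with 1 as the strongest. Signals are the authors' values on a scale that belongs to each list, and read depth is unknown.

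Listed Lim3-eGFP peaks at these genes were few, and 1 gene, beat-Ib, stood far above the others. Peaks of the larger list lay at 6 of the 54 genes (11.1%, Wilson 95% interval 5.19 to 22.2): beat-Ib, beat-Vc, beat-VII, side-V, dpr14 and DIP-lambda. Of all protein-coding genes, 13.1% had such a peak. The Beat, Side, Dpr and DIP genes are long, with a median span of 36.2 kb against 2.16 kb over all protein-coding genes, and a long span has more room for a peak. Among protein-coding genes of 20 kb or more, 33% had a listed peak, and of the 36 Beat, Side, Dpr and DIP genes of that length 5 did (13.9%, Wilson 95% interval 6.08 to 28.7). Under 20 kb the count was 1 of 18, against 11.5% of all protein-coding genes of that length. The merged spans of the 54 genes, 2.74 Mb, held 8 listed peaks, 2.92 per Mb, against 9.19 per Mb over the spans of protein-coding genes of 20 kb or more and 10.5 per Mb over the 7 arms. Against all protein-coding genes the order depended on the 2 kb added to each span. Within the bare spans, 5 of the 54 genes had a listed peak (9.26%), against 5.0% of all protein-coding genes and 26.2% of those of 20 kb or more. The differences were not tested, since the genes were chosen with earlier results of these data known.

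**Figure D1:**
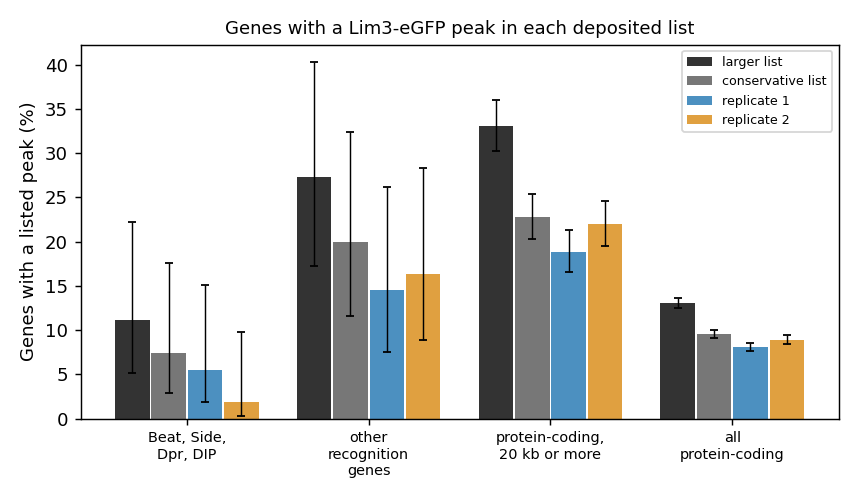
Percentage of genes with at least 1 peak in each of the 4 deposited thresholded lists, for the 54 Beat, Side, Dpr and DIP genes, 55 other recognition genes, protein-coding genes of 20 kb or more, and all protein-coding genes; bars start at 0 and whiskers are Wilson 95% intervals, which cover counting of genes only. The Beat, Side, Dpr and DIP genes stand at 11.1% in the larger list, near the 13.1% of all protein-coding genes and below the 33% of long ones.

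The count depended on the list. In the conservative list 4 genes had a peak (beat-Ib, beat-Vc, side-V and dpr14), 7.41% against 9.57% of all protein-coding genes, 22.7% of those of 20 kb or more and 8.53% of shorter ones. In the list of replicate 1 there were 3 (beat-Ib, dpr14 and side-III), 5.56% against 8.14%, 18.8% and 7.3% of the same groups. In the list of replicate 2 there was beat-Ib alone, 1.85% against 8.92%, 22% and 7.89%. Among the 54 genes, beat-Ib was therefore the single one with a peak in all 4 lists.

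The sequences of 6 windows are shown because they hold listed peaks on which the Beat and Dpr results rest and the best ranked peak of side, the founding Side gene. Listed peaks of side-V and DIP-lambda are not shown. Each window spans 200 bp around a summit in release 6 coordinates (dm6), read from the RefSeq copy of that assembly. Capitals mark every match, on either strand, to TAATTA, the core bound by many homeodomain proteins, to ACAGTG or to GAGAG, the site of GAGA factor.
beat-Ib, strongest peak (chr2L:15911168-15911367, plus strand): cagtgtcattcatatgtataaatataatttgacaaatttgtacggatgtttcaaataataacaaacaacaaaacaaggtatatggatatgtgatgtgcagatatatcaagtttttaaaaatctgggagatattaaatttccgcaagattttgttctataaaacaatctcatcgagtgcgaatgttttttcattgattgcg
beat-Ib, middle peak (chr2L:15912075-15912274, plus strand): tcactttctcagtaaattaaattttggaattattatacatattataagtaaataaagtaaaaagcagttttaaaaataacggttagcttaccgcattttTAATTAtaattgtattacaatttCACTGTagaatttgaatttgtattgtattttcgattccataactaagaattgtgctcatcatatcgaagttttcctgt
beat-Ib, weakest peak (chr2L:15912881-15913080, plus strand): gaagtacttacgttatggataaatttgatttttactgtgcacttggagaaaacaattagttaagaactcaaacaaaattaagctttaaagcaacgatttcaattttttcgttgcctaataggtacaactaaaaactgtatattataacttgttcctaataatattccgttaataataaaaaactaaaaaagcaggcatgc
beat-Vc (chr3R:12778037-12778236, plus strand): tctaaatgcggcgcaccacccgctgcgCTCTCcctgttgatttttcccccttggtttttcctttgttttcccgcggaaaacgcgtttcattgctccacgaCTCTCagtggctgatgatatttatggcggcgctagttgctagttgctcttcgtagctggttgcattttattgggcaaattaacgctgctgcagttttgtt
dpr14 (chrX:7908605-7908804, plus strand): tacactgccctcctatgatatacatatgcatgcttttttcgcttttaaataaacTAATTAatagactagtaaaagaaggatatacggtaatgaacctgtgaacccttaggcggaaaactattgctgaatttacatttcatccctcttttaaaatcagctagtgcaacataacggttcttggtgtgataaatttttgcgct
side (chr3R:27407136-27407335, plus strand): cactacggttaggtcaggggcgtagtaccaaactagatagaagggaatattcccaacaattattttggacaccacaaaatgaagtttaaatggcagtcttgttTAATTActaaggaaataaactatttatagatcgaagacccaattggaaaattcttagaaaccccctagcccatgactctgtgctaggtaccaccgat
The strongest beat-Ib window, the weakest beat-Ib window and the listed beat-VII window, which is not shown, held none of the words. Windows of the same length centred on each replicate's own summit of the strongest beat-Ib peak held ACAGTG, at a different place in each replicate and in neither case wholly inside the window printed here. The middle beat-Ib window held TAATTA and, on the other strand, ACAGTG. The dpr14 and side windows held TAATTA once each, and the beat-Vc window held GAGAG on the minus strand at 2 places. A match describes these letters only and does not show that a protein bound there.

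The Beat genes are the receptor side of the Beat and Side pairs, and they held 5 of the 8 listed peaks, 3 of these at beat-Ib. Of the 14, 3 had a listed peak (21.4%, Wilson 95% interval 7.57 to 47.6), against 13.1% of all and 33% of long protein-coding genes. At beat-Ib, a gene of 57.3 kb on 2L (15905134 to 15962435, minus strand), 3 listed peaks lay close together in an intron near the 3' end. The strongest (2L, 15911206 to 15911369) had a signal of 237 in the list from both libraries, 131 in replicate 1 and 108 in replicate 2. It stood at rank 126 of the list from both libraries, rank 115 in replicate 1 and rank 152 in replicate 2, so both replicates placed it near the top. Its summit lay 51167 bp downstream of the nearest beat-Ib start and 423 bp upstream of the start of lncRNA:CR44867, a non-coding gene in the same region.

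The middle peak of beat-Ib (2L, 15912010 to 15912339) had a signal of 76.7 in the list from both libraries, 32.7 in replicate 1 and 45.6 in replicate 2. Replicate 2 listed it, at rank 931 of its ranked peaks, and replicate 1 had it at rank 1836 with an IDR of 0.138, outside the limit. Its summit lay 383 bp upstream of the start of lncRNA:CR44868. The weakest listed peak (2L, 15912816 to 15913145) had a signal of 64.0 in the list from both libraries, 26.3 in replicate 1 and 31.1 in replicate 2. It was in the larger list alone. A peak of 54.4 at 54.1 kb from the 5' end of the gene, rank 2358, was the strongest of the peaks that were not listed there. All 3 summits fell in the promoter class, within 500 bp of a start, through these non-coding genes, while none lay at a start of beat-Ib. The nearest protein-coding start was that of CG13244. The strongest, middle and weakest summits lay 5620, 4713 and 3907 bp upstream of it. Given to the nearest protein-coding start, no listed peak would therefore count for beat-Ib.

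**Figure D2:**
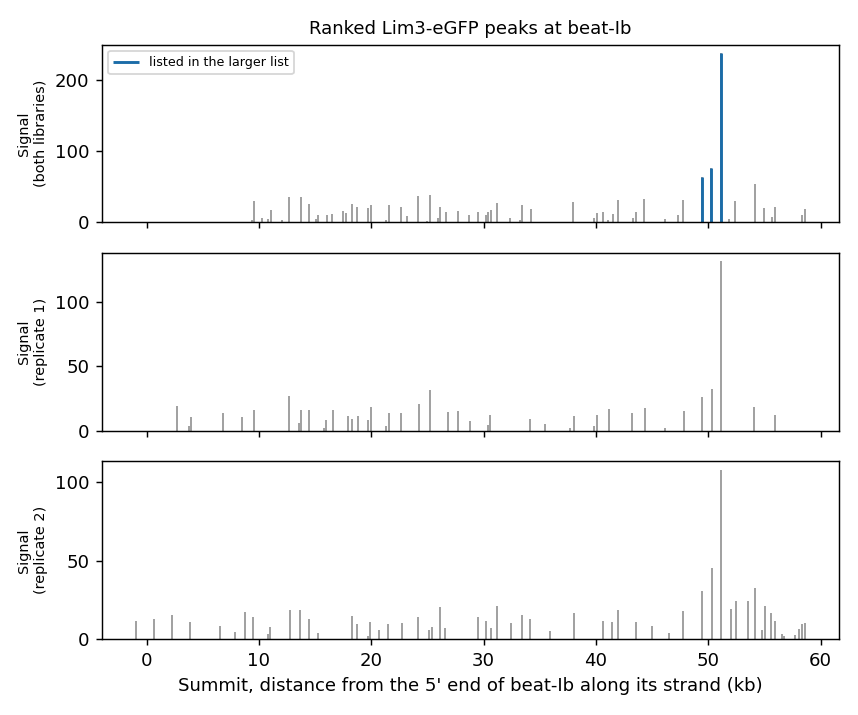
Signal of every ranked peak at beat-Ib against the distance of its summit from the 5' end of the gene along its strand in kb, for both libraries, replicate 1 and replicate 2, each on its own signal scale; blue lines are peaks of the larger list. The listed peaks cluster near 50 kb, and the peak at 51.2 kb is the highest in each of the 3 panels.

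The neighbours of beat-Ib on 2L had no listed peak. The best ranked peak of beat-Ic (16000291 to 16041703) had a signal of 37.3, the lowest of the Beat genes, and 14.4 in replicate 1 and 20.2 in replicate 2. That of beat-Ia (16049965 to 16081684), the founding member, which loosens adhesion between motor axons, had a signal of 43.7, and 18.5 in replicate 1 and 25.1 in replicate 2. The cluster thus held its listed peaks at 1 of its 3 genes.

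The listed peak of beat-Vc (3R, 12777972 to 12778301) lay in an exon, in the 5' UTR, 5079 bp downstream of the nearest start of the gene. Its signal was 62.6 in the list from both libraries, 32.6 in replicate 1 and 34.5 in replicate 2, and its rank was 1600, 1851 and 1954 in these lists. The listed peak of beat-VII (3R, 26654642 to 26654971) was intronic, with a signal of 54.8 in the list from both libraries, 33.9 in replicate 1 and 29.6 in replicate 2. It lay 1633 bp upstream of the start of Tb, a cuticle protein gene within the region. The best peaks of the other 11 Beat genes, beat-Ic and beat-Ia among them, had signals from 37.3 to 49.5, and that upper value belonged to beat-VI. Their IDR ranged widely, from 0.0313 at beat-IIIc to 0.596 at beat-Ic.

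**Figure D3:**
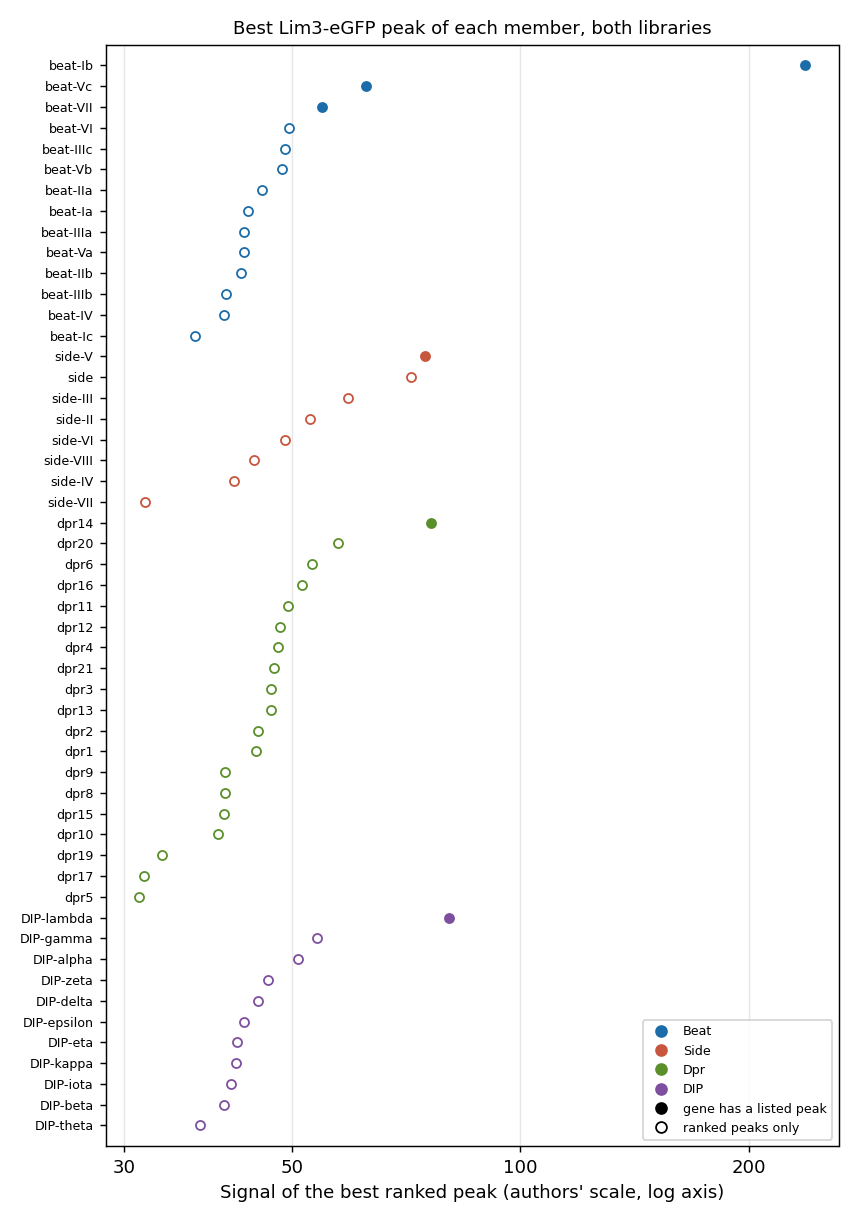
Signal of the best ranked peak of each of the 52 genes with a ranked peak, from both libraries, on a log axis, grouped by family; filled points are genes with a peak in the larger list. The peak of beat-Ib, at 237, stands apart, and the other 51 genes lie between 31.5 and 80.4.

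The Side genes encode the transmembrane partners of Beats. Of the 8, 1 had a listed peak (12.5%, Wilson 95% interval 2.24 to 47.1), against 13.1% of all and 33% of long protein-coding genes. That peak, at side-V, lay in an intron (2R, 23176642 to 23176971), with a signal of 74.9 in the list from both libraries, 35.3 in replicate 1 and 42.5 in replicate 2. It was in the conservative list and in neither replicate's list, where its IDR was 0.0357 and 0.0281. Its window held TAATTA and GAGAG. The best peak of side, the ligand of Beat-Ia on muscle, was intronic (3R, 27407071 to 27407400), 30246 bp downstream of the nearest start. Its signal of 71.7 exceeded that of the listed peaks of beat-Vc and beat-VII, but its IDR of 0.0287 lay outside the limit. The signal was 25.9 in replicate 1, at rank 4308, and 45.4 in replicate 2, at rank 939, so the replicates placed this site differently.

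At side-III, the best peak from both libraries had a signal of 59.2 and an IDR of 0.0181, just outside the limit. Another intronic peak of side-III was in the list of replicate 1 (3R, 5908450 to 5908749, signal 39.4), and no ranked peak of replicate 2 overlapped it. The best peak of side-VI, whose protein binds the Beat-V group, fell at its own promoter, 23 bp downstream of the start. It had a signal of 49.0 in the list from both libraries, 20.8 in replicate 1 and 29.5 in replicate 2. The remaining Side genes, side-II, side-VIII, side-IV and side-VII, had signals of 52.9, 44.5, 41.9 and 32.0. That of side-VII was the third lowest of the 52 genes with a ranked peak.

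The Dpr genes encode small surface proteins with a pair of immunoglobulin domains, named after dpr1 and its role in the avoidance of salt. Of 21, dpr14 alone had a listed peak (4.76%, Wilson 95% interval 0.846 to 22.7), against 13.1% of all and 33% of long protein-coding genes. The peak (X, 7908540 to 7908869) lay 419 bp upstream of dpr14 and 226 bp upstream of the start of spidey, a steroid dehydrogenase gene, so it was within 500 bp of both starts. Its signal was 76.3 in the list from both libraries, 40.1 in replicate 1 and 35.4 in replicate 2. It was in the conservative list and that of replicate 1, and its IDR in replicate 2 was 0.0417.

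The next Dpr gene was dpr20, with a best peak of 57.5 lying 631 bp upstream of its start and an IDR of 0.0154. The signal there was 18.8 in replicate 1 and 44.2 in replicate 2, which had it at rank 1009. Replicate 1 placed it at rank 15993. At dpr6, the longest Dpr gene, the best peak had a signal of 53.0 in the list from both libraries, 33.1 in replicate 1, at rank 1774, and 19.3 in replicate 2, at rank 19704. By rank, the order of the replicates was thus opposite at dpr20 and dpr6. The lowest signals of the 52 best peaks included those of dpr5 (31.5) and dpr17 (31.9), followed by that of dpr19 (33.7) after side-VII. The remaining Dpr genes lay between 39.9 at dpr10 and 51.5 at dpr16. No peak of the ranked list of both libraries lay at dpr7, on chromosome 4, or at dpr18, on X. The gene dpr7 had 0 in each replicate as well, and dpr18 had 0 in replicate 1 and 7 in replicate 2, the best at rank 47074.

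The DIP genes encode the partners of the Dprs. Of the 11, 1 had a listed peak (9.09%, Wilson 95% interval 1.62 to 37.7), against 13.1% of all and 33% of long protein-coding genes. It was DIP-lambda, a gene of 379 kb on 2R (326768 to 705848) whose span is the longest of the 54. The peak was intronic (2R, 564215 to 564544), 237612 bp downstream of the nearest start, with a signal of 80.4 in the list from both libraries. Replicate 1 had it at 38.7, rank 1216, and no ranked peak of replicate 2 overlapped it. It was in neither the conservative list nor a replicate's list. The best peak of DIP-gamma had a signal of 54.0 in the list from both libraries, 28.1 in replicate 1 and 24.4 in replicate 2, and an IDR of 0.101. The other 9 DIP genes had signals from 37.8 at DIP-theta to 50.9 at DIP-alpha.

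Genes whose proteins are known partners, named here for that partnership, were set side by side. For the founding pair, the best peak of beat-Ia had a signal of 43.7 and that of side 71.7. For DIP-alpha the signal was 50.9, for its partners dpr6 and dpr10 it was 53.0 and 39.9, and for DIP-gamma and its partner dpr11 it was 54.0 and 49.4. For dpr12 and DIP-delta the signals were 48.2 and 45.0, and for side-IV and its partners beat-IIa and beat-IIb they were 41.9, 45.7 and 42.8. None of these genes had a listed peak, where 13.1% of all protein-coding genes and 33% of those of 20 kb or more had one. In the Beat-V group, the partners of Side-VI, beat-Va, beat-Vb and beat-Vc had signals of 43.2, 48.4 and 62.6, and side-VI itself 49.0. These pairs were chosen after their values had been seen.

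Over all ranked peaks, these genes were not empty. The best ranked peak stood at a median rank of 4629 over the 52 genes with one, or 3.25% of the way down the list, against 9284 over all protein-coding genes with a ranked peak and 2543 over those of 20 kb or more. By family the median signal was 44.7 for Beat, 50.9 for Side, 46.9 for Dpr and 43.1 for DIP genes, and the ranges of the 4 families overlapped. Best peaks lay in the top 5% of the list at 39 of the 54 genes (72.2%), against 39.4% of all protein-coding genes and 83% of long ones. In the top 1% they lay at 5 of the 54 genes (9.26%; beat-Ib, DIP-lambda, dpr14, side-V and side), against 12.5% and 31.2%. In the top 10% they lay at 48 of the 54 (88.9%), against 58.3% and 93.9%. For the 36 of the 54 genes with 20 kb or more, the median best rank was 3992. Best peaks of these 36 lay in the top 1% at 4 (11.1%) and in the top 5% at 28 (77.8%). In the top 10% they lay at all 36 (100%), above the 93.9% of long genes. Ranked peaks of the whole list numbered 1169 per Mb at the 54 genes and 1025 per Mb at long genes. Of the 3199 ranked peaks at these genes 3.03% were in the top 5% of the list, against 4.56% at long genes. In the pooled list, peaks were thus no sparser here than at long genes, and a smaller share of them stood high. With the top 5%, the replicates did not both show this. Replicate 1 had 1042 ranked peaks per Mb at the 54 genes against 767 at long genes, with the same 4.28% in the top 5% of its list. Replicate 2 had 685 per Mb against 809, with 2.35% against 4.80%. The share in the top 1% of a replicate's list was lower at the 54 genes in both replicates. It was 0.0701% (2 peaks) against 0.585% in replicate 1 and 0.267% (5 peaks) against 0.891% in replicate 2. The lower density in replicate 2 depended on DIP-lambda, at 44.4 per Mb there, and dpr21, at 117. Without them, left out after their values were seen, replicate 2 had 828 per Mb and replicate 1 had 1084.

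For 45 of the 52 genes with a ranked peak (86.5%), a ranked peak of each replicate overlapped the best peak. The same held for 83.5% of 972 best peaks of protein-coding genes of 20 kb or more and 72.0% of 8878 of all. Across the 45 sites the Spearman correlation of the replicates' signals was 0.0553. Chosen in the same way, 812 best peaks of protein-coding genes of 20 kb or more gave 0.42, and 6389 of all protein-coding genes gave 0.284. Each site was picked for its signal in both libraries together, which narrows the range and can lower such a correlation, and all sites share the libraries, so the values are a description only. In the top 5% of both replicates stood the best peaks of 6 of the 54 genes (11.1%): beat-Ib, beat-Vc, beat-VII, side-V, side and dpr14. The same count gave 5 of 36 (13.9%) over those of the 54 with 20 kb or more. It gave 12.3% over all protein-coding genes and 30.1% over those of 20 kb or more. With the top 10% of both it was 10 of the 54 (18.5%), against 16.9% and 40.7%. DIP-lambda, with a listed peak, was not among the 6.

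**Figure D4:**
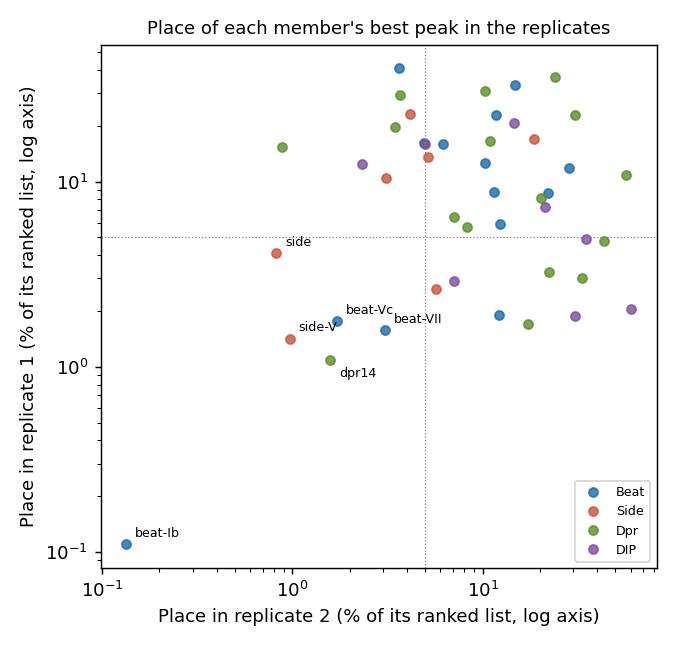
Place of each gene's best peak in replicate 1 against its place in replicate 2, in percent of the replicate's ranked list on log axes, for the 45 genes with an overlapping ranked peak in both; dotted lines mark 5%. The best peaks of 6 genes lie below 5% in both, with that of beat-Ib at 0.110% in replicate 1 and 0.133% in replicate 2, and the Spearman correlation of the signals over the 45 sites is 0.0553.

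Replicate 1 had more ranked peaks than replicate 2 at 42 of the 54 genes (77.8%), fewer at 9 and as many at 3. Over all protein-coding genes 24.5% had more in replicate 1, and over those of 20 kb or more 39% did. The total at the 54 genes was 2852 peaks in replicate 1 and 1875 in replicate 2, a ratio of 1.52, where the spans of long genes gave 0.948 and the 7 arms 0.903. The widest gaps lay at DIP-lambda, with 294 peaks in replicate 1 and 17 in replicate 2, and at dpr21, with 144 and 15, both toward the low coordinates of 2R. Without these 2 genes, left out after their values were seen, the ratio was 1.31. By family, replicate 1 had more peaks at 12 of 14 Beat, 5 of 8 Side, 15 of 21 Dpr and 10 of 11 DIP genes. The exceptions included beat-Ib, with 44 in replicate 1 and 59 in replicate 2, and side-V, with 48 and 56. What sets the libraries apart here was not tested.

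**Figure D5:**
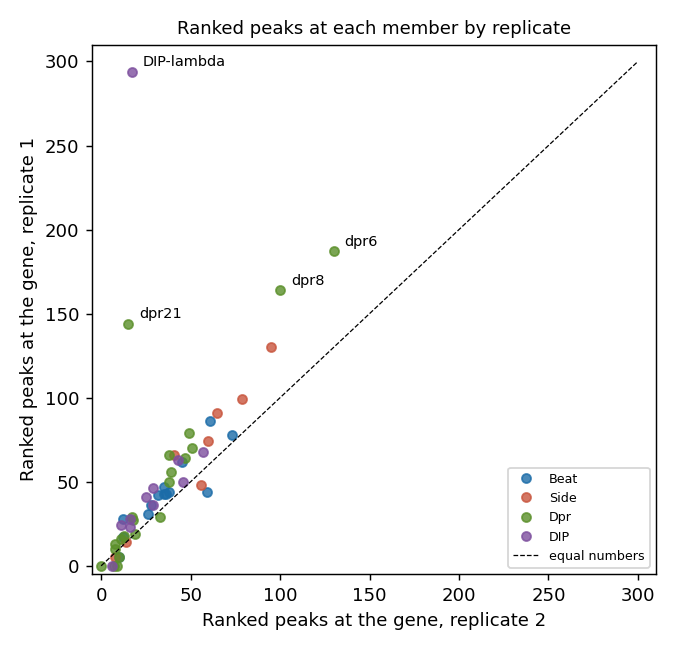
Number of ranked peaks at each of the 54 genes in replicate 1 against the number in replicate 2, coloured by family, with a dashed line of equal numbers. Most genes lie above the line, and DIP-lambda (294 in replicate 1, 17 in replicate 2) and dpr21 (144 and 15) lie farthest from it.

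By position, most best peaks were intronic. Of the 52 best peaks, 31 fell in the intron class (59.6%) and 10 in promoters (19.2%), where the best peaks of protein-coding genes of 20 kb or more had 60.1% and 21.7%. Of the 10 promoter peaks, those of beat-Vb, beat-IIIb, side-VI and dpr16 lay within their own gene near its start, and that of dpr14 lay between its start and that of spidey. Those of beat-Ib, dpr6, dpr4, DIP-alpha and DIP-eta fell at the start of a non-coding gene in the span. Among the 1445 listed peaks on the arms 46.4% were in promoters of any gene. Of the 8 listed peaks at the 54 genes, the 3 of beat-Ib and that of dpr14 fell in this class. Of these, only that of dpr14 lay within 500 bp of a start of its own gene.

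TAATTA was found in the windows of 6 of the 52 best peaks (11.5%, Wilson 95% interval 5.40 to 23.0), those of side-V, side, side-IV, dpr14, dpr9 and DIP-delta. The word was in 9.94% of all ranked peaks on the arms and in 20.1% of the listed ones. ACAGTG was in 6 of the 52 windows (11.5%), against 8.16% of ranked and 21.9% of listed peaks. GAGAG was in 20 of them (38.5%, 26.5 to 52.0), against 23.1% of ranked and 23.9% of listed peaks. Of the 97 peaks at these genes in the top 5% of the list, 33.0% held GAGAG, against 23.3% of all peaks of that class on the arms. In the same classes TAATTA was in 10.3% against 12.7%, and ACAGTG in 9.28% against 13.3%. Of the 8 listed peaks at these genes, 3 held TAATTA (37.5%, Wilson 95% interval 13.7 to 69.4), 3 GAGAG and 1 ACAGTG. These shares were not tested, and the 3 words were chosen with earlier results of these data known.

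Other neuronal recognition genes were counted in the same way from a list of 55 that holds receptors, ligands and adhesion proteins outside the Beat, Side, Dpr and DIP families. Their median span, 37.8 kb, was close to the 36.2 kb of the 54 genes. A listed peak lay at 15 of the 55 (27.3%, Wilson 95% interval 17.3 to 40.2). Of all protein-coding genes 13.1% had one, and of those of 20 kb or more 33% did. The merged spans of the 55 held 8.97 listed peaks per Mb, against 9.19 per Mb over those of long genes. Taking only the best listed peak of each gene, those of Ptp4E, ed, Fas3 and kirre were in the lists of both replicates. Ptp4E is a receptor tyrosine phosphatase gene (promoter, signal 186) and ed an adhesion gene (intron, 137). Fas3 is a homophilic adhesion gene (intron, 136) and kirre a founder cell receptor gene of muscle (intron, 111). The remaining 11 were tutl, Sema1a, Ptp99A, NetA, Toll-7, Ten-a, unc-5, bdl, fred, drl and sns, with best signals from 57.7 at sns to 96.4 at tutl. Against these, the strongest listed peak of the 54 genes, that of beat-Ib at 237, was higher than each of the 15. The difference in counts, 6 of 54 against 15 of 55, was not tested.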

How the data were processed

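Lim3-eGFP chromatin immunoprecipitation was sequenced from 2 libraries, and the deposited files are peak lists on dm6. The signal of a peak is the authors' own value. The deposited score follows the IDR and is capped at 1000, and each ranked file also gives −log10 of the IDR, as deposited. Aligner, caller and read depth were not given in the sources used here. Since the scale may differ between lists, replicates were compared by rank in their own lists.

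In the pooled ranked files, 4 further signal columns could not be assigned to a library by name and were not used. Gene spans came from the Ensembl annotation of BDGP6, in dm6 coordinates. Peaks on scaffolds were left out. Each summit was classed once, promoters (within 500 bp of a transcript start) taking priority over exon parts, introns and intergenic sequence. A replicate's peak matched another when they shared at least 1 bp. Windows of 200 bp were searched on both strands. The labels give 1 group, so no test was made; shares carry Wilson 95% intervals, which cover counting of genes or peaks only. The assignment was tested on simulated data. The rule for named genes took those with a peak in any thresholded list, the 10 best ranked, the best of each family, the 3 poorest, those with no ranked peak, and other recognition genes with a peak in the larger list; other genes named in ranges, counts or partner pairs were chosen after their values were seen. The genes, lists and searched words were chosen with earlier results of these data known. Of 56 other recognition genes listed, 1 symbol was not matched. Python 3.11.15, numpy 2.4.6, pandas 2.3.3 and scipy 1.17.1 were used.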

Additional observations from a re-analysis of the deposited data

How the results depend on the processing

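The number of Beat, Side, Dpr and DIP genes with a listed peak was 6 of 54 (11.1%, against 13.1% of all protein-coding genes), and from the list of either replicate alone it ranged from 1 to 3. It was 1 (1.85% against 7.90%) with the upper 50% of the list by signal and 2 (3.70% against 8.25%) with peaks given to the nearest start (beat-Vc and DIP-lambda). It stayed within 1.5 times in the other settings, at 4 with the conservative list, 6 with all ranked peaks at an IDR of 0.01 or less (11.1% against 13.3%) and 8 with 5 kb added (14.8% against 20.04%). With no extension it was 5, and the order against all protein-coding genes turned (9.26% against 5.0%). Against genes of 20 kb or more, the 36 genes of that length had the lower share in each of these settings. For the other recognition genes the count of 15 fell to 8 with replicate 1 alone (14.5%). There, 8.14% of all protein-coding genes and 18.8% of those of 20 kb or more had a peak. With replicate 2 alone it was 9 (16.4%, against 8.92% and 22.0%). With the upper 50% it was 5 of 55, where 7.90% of all protein-coding genes and 18.0% of long ones had a peak. The median best rank was 3041 to 6889 with 1 replicate. Promoters of 200 and 1000 bp held 3 and 16 best peaks, against 10. Best peaks high in both replicates numbered 1 at the top 1% (1.85% against 6.31% of all protein-coding genes) and 10 at the top 10% (18.5% against 16.9%), against 6. The ratio of ranked peaks, replicate 1 over replicate 2, was 1.31 without DIP-lambda and dpr21. Of 33 alternatives, 21 left the value within 1.5 times (counts), the spread between replicates (median rank) or the counting interval (TAATTA). Some of the 21 could hardly move. The spread was the standard deviation of the replicates' own medians, 3041 and 6889, which were also counted. The median as a percentage of the list's length is the same value rescaled. Read depth is unknown and limits the weak peaks. No paired analysis was possible because the labels give 1 group.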
